A study of Psychotria grandis and Psychotria costivenia and Psychotria revoluta with 6 samples.

Results

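Leaf transcripts of Psychotria grandis were compared with those of Psychotria costivenia, a pair of shrub species that the labels describe as nickel hyperaccumulators. The comparison was chosen by species and used 4 libraries of the 6 in the series, 2 wild plants of each species. Both P. grandis plants were collected at Mil Cumbres on 27 June 2014 and both P. costivenia plants at La Coca on 12 June 2014, in gallery forest on serpentine soil in Cuba. The other 2 libraries came from plants of P. revoluta, a non-accumulator from Mil Cumbres, dated 27 July 2014 for plant 1 and 27 June 2014 for plant 2 by the labels, and were used to estimate the spread between plants and to place the differences. No treatment was applied, and species, locality and date differ together between the groups, so these cannot be told apart. Each plant gave 1 library, the plants are described as independent, and counts were made on contigs, the assembled transcripts of a P. grandis plant.

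Nickel hyperaccumulators take up nickel from metal-rich soils such as serpentine and hold it in their leaves at levels that are toxic to most plants. In species studied so far, the metal is carried by membrane transporters of broad metal families and bound to small molecules such as citrate, histidine or nicotianamine, and much of it ends in vacuoles of leaf cells. Accumulation of this kind has arisen many times in unrelated plants, so a pair of accumulators in 1 genus may share the trait and differ in much else of their leaf transcripts. The contigs carry running numbers without gene names, sequences or annotation in the files used here. They could not be assigned to transporters, ligand synthesis or any other function, and no leaf marker genes could be checked. The contigs are therefore described by level, size of difference and distribution over plants.

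All tables listed 45143 contigs, and 33393 of these (74.0%) had at least 1 read in all 4 plants. P. grandis plants 1 and 2 had totals of 50552919 and 45676087 counts, against 46760513 and 48322940 in P. costivenia plants 1 and 2. Levels below are CPM, counts scaled to a common library total, after adjustment by TMM, a method that equalises the bulk of contigs between libraries. Testing used 35660 contigs with enough counts, which held 99.9% of all counts.

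The P. grandis plants differed from each other about as widely as from P. costivenia, while the P. costivenia plants were alike. Among contigs of at least 5 CPM in either plant of a pair, 3453 of 18575 (18.6%) were at least 4-fold apart between the P. grandis plants, on the scale of CPM + 1. Only 448 of 16445 (2.72%) were that far apart between the P. costivenia plants. Across the species, P. grandis plant 1 was at least 4-fold apart from P. costivenia plants 1 and 2 in 24.3% and 25.6% of contigs. P. grandis plant 2 was that far from P. costivenia plants 1 and 2 in 15.2% and 15.6%. Plant 2 of P. grandis was thus nearer to either P. costivenia plant than to the other plant of its own species by this measure. It was nearer still to P. revoluta plants 1 and 2, from which 3.44% and 3.17% of contigs were at least 4-fold apart, shares not far above the 2.72% between the P. costivenia plants. P. grandis plant 1 was that far from the P. revoluta plants in 29.0% and 28.2% of contigs. The exact (Clopper-Pearson) intervals at 95% were 18.0% to 19.2% between the P. grandis plants and 2.48% to 2.98% between the P. costivenia plants, and they cover counting of contigs alone, which are not independent.

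**Figure D1:**
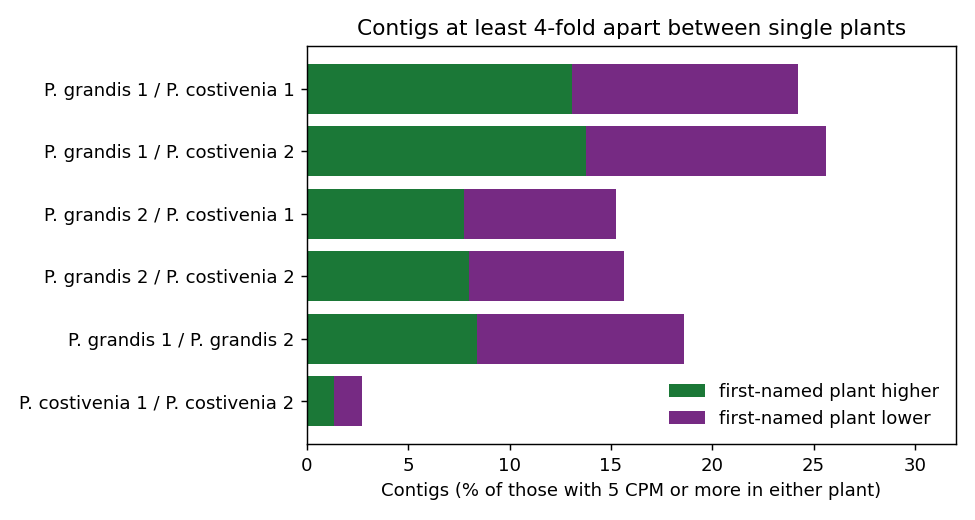
Share of contigs at least 4-fold apart between single plants, in percent of the contigs with 5 CPM or more in either plant of the pair, with the first-named plant higher in green and lower in purple. Among these 6 pairs, those of P. grandis plant 1 with P. costivenia are the widest at 24.3% and 25.6%, the P. grandis plants differ from each other in 18.6%, and the P. costivenia plants in 2.72%.

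The directions were nearly even in each pair of a P. grandis plant with a P. costivenia plant. P. grandis plant 1 was at least 4-fold higher in 2425 and lower in 2079 contigs than P. costivenia plant 1, and higher in 2578 and lower in 2211 than P. costivenia plant 2. For P. grandis plant 2 there were 1392 higher and 1346 lower against P. costivenia plant 1, and 1438 higher and 1377 lower against P. costivenia plant 2. Pearson's r of log2(CPM + 1), here with CPM of the library total, was 0.792 and 0.769 between P. grandis plant 1 and the P. costivenia plants, and 0.863 and 0.859 between P. grandis plant 2 and the P. costivenia plants. It was 0.817 within P. grandis and 0.968 within P. costivenia (Spearman's rho 0.781 and 0.947). These are descriptions across 35660 contigs.

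The most abundant transcripts showed the same split. Of the 100 contigs with the highest level in P. grandis plant 1, 27 and 22 were also among the 100 highest of P. costivenia plants 1 and 2. For P. grandis plant 2 the numbers were 62 and 64. The P. grandis plants shared 32 of their 100 highest contigs, and the P. costivenia plants shared 89. With the P. revoluta plants, P. grandis plant 2 shared 80 and 82, and P. grandis plant 1 shared 29 and 27. These 100 contigs took 31.9% of the counts in P. grandis plant 1 and 23.5% in plant 2, against 26.8% and 27.3% in the P. costivenia plants. At a depth of 500 contigs, P. grandis plant 1 shared 184 and 167 with the P. costivenia plants, and plant 2 shared 321 and 318.

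Against this spread, a smaller set of contigs held the species apart. In edgeR's quasi-likelihood test with Benjamini-Hochberg adjustment, P. grandis had 652 higher and 304 lower contigs than P. costivenia at an adjusted p of at most 0.05, which is 2.68% of the contigs tested (1.83% higher and 0.852% lower). The smallest adjusted p was 0.0215. The numbers rest on single plants. Without P. grandis plant 1 there were 4671 higher and 3957 lower contigs, and without P. grandis plant 2 there were 5333 and 5162, in fits where that species had 1 plant and was assumed to vary like the others. Without P. costivenia plant 1, P. costivenia plant 2, P. revoluta plant 1 or P. revoluta plant 2, 0 contigs passed in edgeR, and 5305 to 6555 reached an unadjusted p of 0.05, against 9334 (26.2%) with all plants. The model of the 4 P. grandis and P. costivenia libraries alone also gave 0. There, 6656 of 33803 tested contigs were at or under an unadjusted p of 0.05. The sets tested differed, so these numbers are not shares of 1 set. Fits without a P. costivenia or P. revoluta plant tested 40254 to 40597 contigs, against 35660 with all plants. Fits without P. grandis plant 1 and plant 2 tested 35759 and 40570. With all plants, 4728 higher and 3244 lower contigs (22.4%) were called by DESeq2, and 571 higher and 656 lower (3.44%) by limma-voom, which turned the balance. Of the 956 contigs called by edgeR, DESeq2 called 955 in the same direction (12.0% of its own list) and limma-voom 782 (63.7% of its own list).

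**Figure D2:**
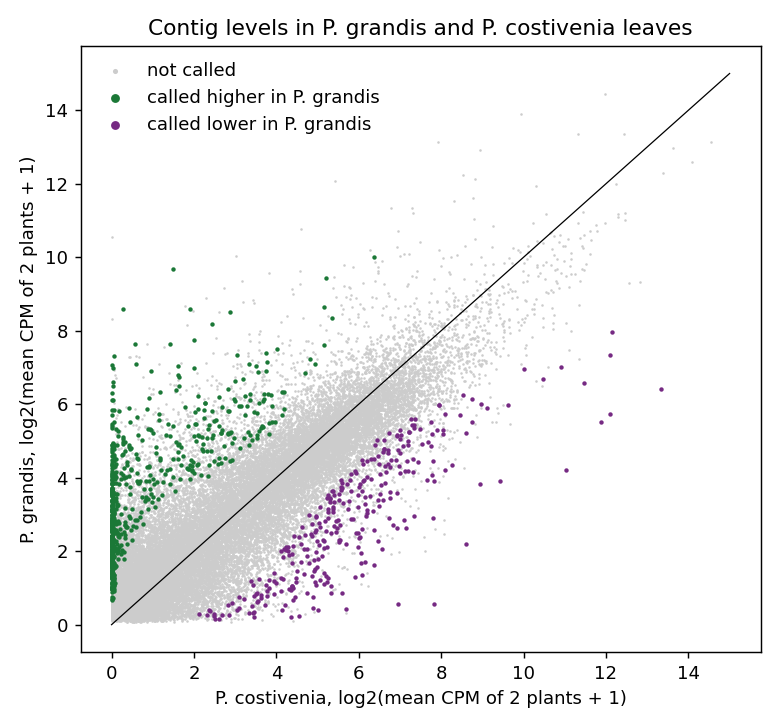
Mean level of each of the 35660 tested contigs in P. grandis (vertical axis) and P. costivenia (horizontal axis), as log2(mean CPM of 2 plants + 1), with the line of equal levels. The 652 contigs called higher (green) crowd at the left edge, where P. costivenia had few or no reads, and the 304 called lower (purple) lie at higher levels of P. costivenia.

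The contigs higher in P. grandis were mostly near absence in P. costivenia. Their median level was 9.33 and 8.65 CPM in P. grandis plants 1 and 2, against 0.0485 and 0.0468 CPM in P. costivenia plants 1 and 2. In a single P. costivenia library a count of 0 allows 0.0642 and 0.0621 CPM of the library total. These P. costivenia medians therefore cannot be told from 0 in 1 library. Of the 652, 193 had no read in either P. costivenia plant. A count of 0 in both plants allows up to 3 counts, or 0.0357 CPM, and with these contigs at that bound the median log2 fold change was 5.89, with quartiles of 3.97 and 7.32. In 487 contigs (74.7%) the difference was at least 16-fold, and over all tested contigs, called or not, that share was 7.82% in either direction. Since the test chose these contigs for their difference, the sizes are a description. All of them together took 1.99% and 1.89% of the counts of the P. grandis libraries, against 0.112% in each P. costivenia library. The most abundant of them had 1039 and 1007 CPM in the P. grandis plants, against 65.9 and 96.7 CPM in the P. costivenia plants.

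The 304 contigs lower in P. grandis had smaller differences, and their median levels in P. costivenia exceeded those of the higher contigs in P. grandis. That all of them had reads in P. grandis was fixed in advance, since the reference is a P. grandis assembly and plant 1 had reads on 45142 of the 45143 contigs. Their median level was 6.18 and 6.19 CPM in the P. grandis plants and 44.8 and 49.6 CPM in the P. costivenia plants. The median log2 fold change was -3.13, with quartiles of -4.11 and -2.37, and 83 contigs (27.3%) differed at least 16-fold. Together they took 0.423% and 0.507% of the counts in the P. grandis plants, against 4.998% and 5.79% in the P. costivenia plants. A single contig among them had 118.0 and 51.5 CPM in the P. grandis plants, against 7342 and 13411 CPM in the P. costivenia plants. By mean level over the 4 plants, 66 higher and 0 lower contigs were called under 1 CPM. This was 0.686% and 0% of the contigs tested at that level. From 1 to 10 CPM the numbers were 365 (2.80%) and 50 (0.384%). From 10 to 100 CPM they were 208 (1.84%) and 211 (1.87%), and from 100 CPM upward 13 (0.759%) and 43 (2.51%). When libraries were scaled by their totals, the median log2 fold change over tested contigs was 0.48, against 0.24 by TMM, and 795 contigs were called higher and 207 lower. The share of higher contigs among those called was 79.3% by totals, 68.2% by TMM and 46.5% in limma-voom.

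On the scale of CPM + 1, the called contigs had smaller median ratios between the P. grandis plants than all tested contigs. Between the P. costivenia plants this held for the higher contigs alone. The added 1 shrinks ratios at low levels, and the sets differ in level, so its part in these values was not tested. Between the P. grandis plants the median absolute log2 ratio of CPM + 1 was 0.48 in the higher contigs and 0.27 in the lower ones. Over all tested contigs it was 0.66. Between the P. costivenia plants it was 0.03 and 0.25, against 0.21 over all tested contigs. The low value for the higher contigs stands beside levels close to 0 there, where the added 1 keeps any ratio small. Of the 956 called contigs, 16 were at least 4-fold apart between the P. grandis plants on this scale, all among the higher ones. Over all 35660 tested contigs the number was 3741. As the spread is part of the test, this describes how the contigs were chosen.

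Contigs named here are those with the largest differences among called contigs with a mean of at least 10 CPM, at least 10 counts in each of the 4 plants and no overlap of the species. There were 170 such contigs higher and 253 lower in P. grandis. The 170 had medians of 44.5 and 38.3 CPM in the P. grandis plants against 4.51 and 3.81 CPM in the P. costivenia plants, and log2 fold changes of 1.43 to 8.82. The 253 had medians of 8.70 and 8.67 CPM in P. grandis and 59.2 and 63.0 CPM in P. costivenia, and log2 fold changes of -8.86 to -1.44.

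Pgra_v1_contig_67 had 1338 and 305.1 CPM in P. grandis plants 1 and 2, against 1.07 and 2.55 CPM in P. costivenia plants 1 and 2. Both P. grandis plants were far above both P. costivenia plants, although they were themselves over 4-fold apart. The log2 fold change was 8.82 (SE 1.22, adjusted p = 0.0404 by edgeR), and it was 7.39 without P. grandis plant 1 and 9.56 without plant 2. Pgra_v1_contig_24 had 194.2 and 205.4 CPM in P. grandis, against 0.533 and 0.422 CPM in P. costivenia, where 22 and 18 counts were found. Its plants were close together within each species, and the log2 fold change was 8.70 (SE 0.42, adjusted p = 0.0215 by edgeR).

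Among the contigs lower in P. grandis, Pgra_v1_contig_43074 had 0.367 and 0.605 CPM in P. grandis, from 18 and 31 counts, against 191.2 and 263.9 CPM in P. costivenia. It was barely read in the species whose assembly contains it and was well expressed in P. costivenia. The log2 fold change was -8.86 (SE 0.58, adjusted p = 0.0227 by edgeR). Pgra_v1_contig_35798 showed the same picture, with 0.367 and 0.586 CPM in P. grandis, from 18 and 30 counts, against 90.8 and 155.2 CPM in P. costivenia. The log2 fold change was -8.00 (SE 0.65, adjusted p = 0.0275 by edgeR). The calls of all 4 contigs were lost in edgeR when a P. costivenia plant or a P. revoluta plant was left out (adjusted p = 0.138 to 0.233) and in the model of the 4 libraries (0.131 to 0.137), while their log2 fold changes stayed within 7.39 to 9.56 for the higher and -9.24 to -7.64 for the lower contigs.

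**Figure D3:**
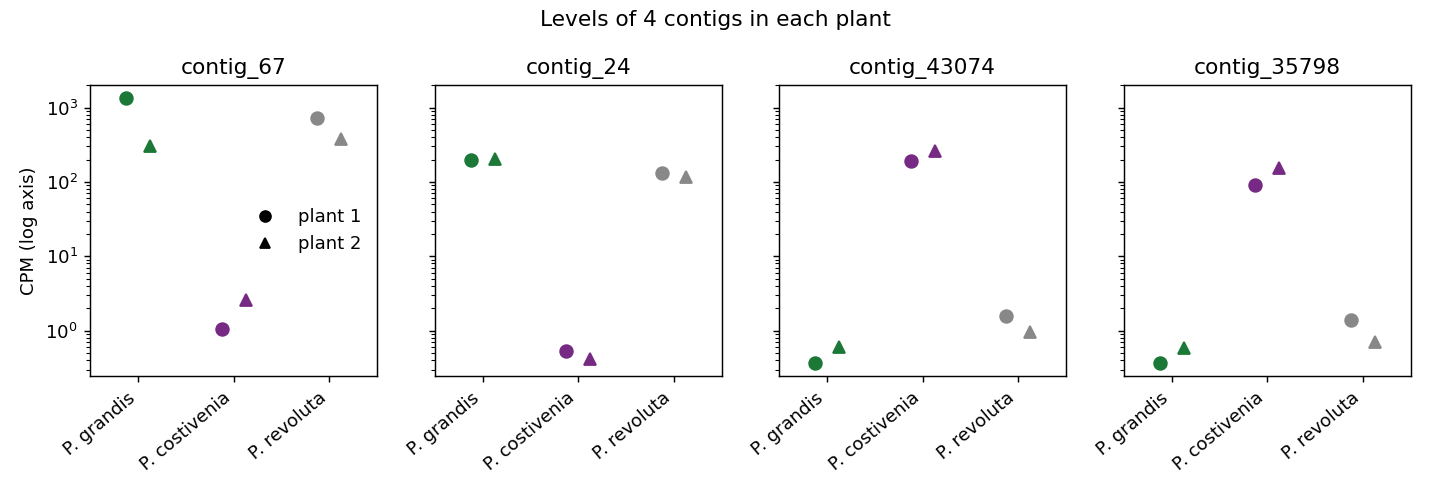
Level of the 4 named contigs in each plant, in CPM on a log axis, with plant 1 as a circle and plant 2 as a triangle. P. grandis and P. costivenia lie over 100 times apart in each panel, and P. revoluta lies on the side of P. grandis in all 4.

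P. revoluta, whose libraries were not part of this contrast, lay on the side of P. grandis in the named contigs. These contigs were chosen with both P. grandis plants on 1 side of P. costivenia. The others called were chosen by the test of the species difference, without that rule. P. grandis plant 2 was close to P. revoluta across the transcriptome (r = 0.949 and 0.952), unlike plant 1 (0.732 and 0.740). Levels near those of P. revoluta are therefore not a separate finding. Pgra_v1_contig_67 had 714.4 and 379.4 CPM in the P. revoluta plants, and Pgra_v1_contig_24 had 130.8 and 114.8 CPM. Pgra_v1_contig_43074 had 1.55 and 0.944 CPM there, and Pgra_v1_contig_35798 had 1.39 and 0.694 CPM. The log2 fold changes of P. grandis over P. revoluta were 0.59 (SE 0.87), 0.70 (SE 0.30), -1.36 (SE 0.44) and -1.13 (SE 0.51) in this order, none of which passed in edgeR (adjusted p = 0.186 to 0.687).

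Over the called contigs, the median levels of P. revoluta likewise lay nearer to those of P. grandis. The part of the likeness of P. grandis plant 2 to P. revoluta in this was not tested. For the 652 higher contigs, the medians of 9.33 and 8.65 CPM in the P. grandis plants and 0.0485 and 0.0468 CPM in the P. costivenia plants stand beside 5.56 and 5.81 CPM in the P. revoluta plants. For the 304 lower contigs, 6.18 and 6.19 CPM in P. grandis plants and 44.8 and 49.6 CPM in P. costivenia plants stand beside 5.47 and 5.03 CPM in P. revoluta plants. The median log2 fold change of P. grandis over P. revoluta was 0.31 in the higher contigs and 0.18 in the lower ones, and that of P. costivenia over P. revoluta was -5.74 and 3.38. Over all tested contigs these medians were 0.13 and 0.00. The fits share the libraries of each species, and the P. revoluta plants also entered the spread by which contigs were called, so the values stand side by side and were not tested against each other. P. grandis and P. revoluta were sampled at the same locality, and the part of locality in these levels was not tested.

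**Figure D4:**
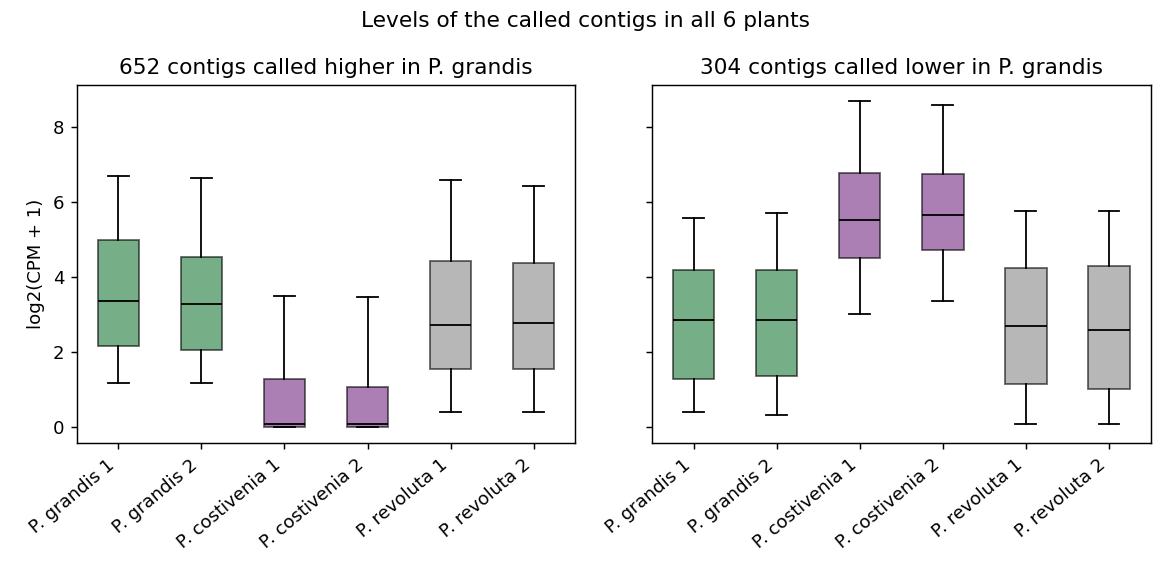
Levels of the called contigs in all 6 plants, as log2(CPM + 1), for the 652 contigs called higher (left) and the 304 called lower in P. grandis (right), with boxes from the lower to the upper quartile, a line at the median and whiskers from the 5th to the 95th percentile. The P. costivenia boxes stand apart from those of P. grandis, with medians of 0.0485 and 0.0468 CPM on the left and 44.8 and 49.6 CPM on the right. The P. costivenia medians on the left cannot be told from 0 in 1 library. The P. revoluta boxes overlap those of P. grandis.

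A rule of size that does not use the spread of the third species was also counted. Its numbers depend on the fold and the CPM added. They were 1668 higher and 873 lower with CPM + 0.1, and 149 and 205 with CPM + 5. The rule uses the same P. grandis and P. costivenia libraries, so its numbers are no separate support for the edgeR calls. Contigs for which both P. grandis plants lay at least 4-fold above both P. costivenia plants, on the scale of CPM + 1, numbered 553 (1.55% of those tested), and 457 (1.28%) lay at least 4-fold below. Of the 553, edgeR called 385, and of the 457 it called 214. The rest had adjusted p-values of up to 0.284. The 553 contigs had medians of 23.6 and 15.3 CPM in the P. grandis plants against 0.412 and 0.258 CPM in the P. costivenia plants. They took 4.35% and 2.73% of the P. grandis counts, against 0.176% and 0.136% of the P. costivenia counts. The 457 contigs had medians of 2.41 and 2.40 CPM in P. grandis and 32.9 and 36.9 CPM in P. costivenia, and took 0.567% and 0.855% of the P. grandis counts, against 8.02% and 8.96% of the P. costivenia counts. Without regard to size, 10328 contigs (29.0%) were higher and 9390 (26.3%) were lower in both P. grandis plants than in both P. costivenia plants.

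As the rule of size must hold for all plants, leaving out a plant can only keep or raise its numbers. Leaving out P. grandis plant 1, P. grandis plant 2 or P. costivenia plant 1 raised them by over 1.5 times. Without P. grandis plant 1, 1244 contigs were at least 4-fold higher and 1049 lower, and without P. grandis plant 2 the numbers were 2401 and 1730. Without P. costivenia plant 1 they were 848 and 731, and without P. costivenia plant 2 they were 741 and 659, a smaller shift.

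Contigs read in one species and unread in the other were found in 1 direction alone. Of 31398 contigs with at least 10 counts in both P. grandis plants, 654 (2.08%) had no read in either P. costivenia plant. The reverse count was 0, which the reads of P. grandis plant 1 also fixed in advance. Without that plant, 712 contigs had at least 10 counts in P. grandis and no read in P. costivenia, and 198 had at least 10 counts in both P. costivenia plants and no read in P. grandis. Transcripts of P. costivenia that are missing from the P. grandis assembly were not counted at all. Reads of P. costivenia were matched to contigs of another species, so a difference in sequence and a lower level cannot be told apart in these counts, which holds for every contig above.

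Most of the 654 contigs were of low abundance. Their median level in P. grandis was 1.22 CPM, with quartiles of 0.558 and 2.98 CPM, against a median of 5.75 CPM for all contigs read in both P. grandis plants. At the bound of 3 counts over both P. costivenia plants, the median contig was at least 34.1-fold higher in P. grandis. Only 217 had at least 1 CPM in both P. grandis plants, and 16 had at least 10 CPM. The most abundant reached 2969 CPM in plant 1 of P. grandis but 0.683 CPM in plant 2, so that its rank rested on 1 plant. P. revoluta read 392 of the 654 (59.9%) with at least 10 counts in both of its plants, against 88.6% of all contigs read in both P. grandis plants, and 92 had no read in P. revoluta either. EdgeR called 193 of the 654 higher in P. grandis (29.5%, against 1.83% of all tested contigs), and the absence of reads that chose them is part of that test. Without P. grandis plant 2 the number of unread contigs was 5439, and without P. costivenia plant 1 or plant 2 it was 1250 or 1166. Leaving out a plant can only keep or raise this number.

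A part of the leaf transcripts of at least 5 CPM, though not most of them, stayed within 2-fold in all 4 plants. There were 16651 contigs with a mean of at least 5 CPM. On the scale of CPM + 1, 5180 of them (31.1%) lay within 2-fold in both P. grandis and both P. costivenia plants. Within 1.5-fold there were 1940 (11.7%). The added 1 widens the range allowed to contigs near 5 CPM, so shares on plain CPM would be no higher. Without P. grandis plant 1, 9628 contigs (57.8%) lay within 2-fold, and without P. grandis plant 2, 7554 (45.4%). Leaving out a plant can only keep or raise these shares. As RNA was taken from whole leaves, fewer cells of a type and less RNA per cell cannot be told apart in any of these levels.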

How the data were processed

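Leaf polyA RNA of 6 wild plants was sequenced from stranded, paired-end libraries, per the labels' protocols. Raw read counts per contig of the P. grandis assembly were deposited as 1 table per plant, per the file headers. Not given in the sources used here are the tools for assembly, alignment and counting, whether strand was used and what was done with multi-mapping reads. Counts of near-identical contigs are therefore uncertain. The species of the P. revoluta libraries is that of the labels, as their column headers carry another prefix.

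Contigs were kept by filterByExpr with its defaults (minimum count 10, minimum total 15), scaled by TMM and fitted for all 6 libraries with species as the factor (edgeR 4.0.16 in R 4.3.3, robust quasi-likelihood, 3 residual degrees of freedom, two-sided). The SE is the absolute log2 fold change over the square root of F. DESeq2 1.42.0 and limma 3.58.1 served as alternatives, besides other scalings, filters and left-out plants. No pair of plants within a species was alike within sampling noise (chi-square per contig 796.7 in P. grandis and 97.9 in P. costivenia), and none was counted as a copy. A count of 0 allows 3 counts, 0.0518 to 0.0657 CPM of a library total, which covers counting error only. The 2 named contigs per direction followed a rule of size, level and counts. The comparison and the lists were chosen with earlier results of these data known.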

Additional observations from a re-analysis of the deposited data

How the results depend on the processing

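The numbers of called contigs moved with the model and with single plants. The correlations between libraries moved by less than 0.0476, the standard deviation of r over the 4 pairs of both species. The correlation within each species is a single value without a spread of its own. Levels under 0.0357 CPM over both P. costivenia plants cannot be told from 0. In edgeR, 141 contigs were higher and 36 lower of 35660 when tested against a 2-fold change. With at least 1 CPM in 2 libraries the numbers were 1006 and 493 of 28340 tested, and without a filter 837 and 506 of 45142. DESeq2 gave 4728 and 3244, limma-voom 571 and 656, and limma-voom with a weight per species, added after the data were seen, 348 and 40. The model of the 4 libraries gave 0 in each direction (6656 of 33803 tested contigs at or under an unadjusted p of 0.05). Fits without 1 plant gave 0 to 5333 higher and 0 to 5162 lower contigs. Plants of different species share only a number: the correlation of plant 1 minus plant 2 across contigs was 0.119 between P. grandis and P. costivenia. With the plant number as a replicate block, 0 contigs were higher and 0 lower in edgeR (7883 at an unadjusted p of at most 0.05, smallest adjusted p 0.0828).

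No named contig changed direction in 17 alternatives. As they were chosen for the largest differences without overlap of the species, this was all but fixed in advance. Pgra_v1_contig_67 and Pgra_v1_contig_35798 lost the call in 7, Pgra_v1_contig_24 and Pgra_v1_contig_43074 in 6, with adjusted p from 8.45e-20 to 0.233 for the first, 2.28e-36 to 0.208 for the second, 5.31e-109 to 0.208 for the third and 7.23e-63 to 0.208 for the fourth.

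Contigs at least 4-fold higher and lower numbered 1668 and 873 with CPM + 0.1 and 149 and 205 with CPM + 5, which turned the balance, and 741 to 2401 and 659 to 1730 over the left-out plants. Contigs unread in P. costivenia numbered 227 at a minimum of 50 counts, 1094 with up to 2 counts allowed, and 712 to 5439 over the left-out plants, and those unread in P. grandis 0 to 198. For the 4-fold and the unread contigs, leaving out a plant can only keep or raise the number. The share at least 4-fold apart was 22.4% between P. grandis plants and 3.42% between P. costivenia plants with CPM + 0.1, 13.1% and 2.20% from 1 CPM, and 1.75% between P. costivenia plants from 20 CPM. The median level of the higher contigs in P. revoluta was 2.94 CPM for DESeq2 calls, 6.40 CPM for limma-voom and 5.41 CPM with weights, and that of the lower contigs 3.14 CPM for limma-voom, 18.5 CPM with weights and 3.41 CPM for library totals, against 5.69 and 5.25 CPM for edgeR. The cause of these shifts was not tested.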

Other observations

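Many contigs with reads in P. grandis plant 1 had none in P. grandis plant 2 or P. costivenia. P. grandis plant 1 had reads on 45142 of the 45143 contigs, so contigs unread in other libraries were all but fixed in advance to be read in this plant. The numbers here and below therefore describe which contigs the other libraries left unread. They do not show that plant 1 was richer in transcripts of its own. With at least 10 counts in P. grandis plant 1 and 0 in P. grandis plant 2 and both P. costivenia plants there were 4043 contigs. Of these, 2247 had reads in P. revoluta plant 2 and none in P. revoluta plant 1, 126 had reads in P. revoluta plant 1 and none in plant 2, and 1370 had none in either.

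Counted without a minimum, 2870 contigs had reads in P. grandis plant 1 and P. revoluta plant 2 and in no other library. By the labels, these plants were collected on the same date, 27 June 2014, at the same locality, as was P. grandis plant 2, while P. revoluta plant 1 is dated 27 July 2014. The corresponding number was 375 for the plants of P. grandis, and P. grandis plant 1 shared 311 such contigs with P. costivenia plant 1, 132 with P. costivenia plant 2 and 200 with P. revoluta plant 1. The 2870 contigs had a median of 15 counts in P. grandis plant 1 and 3 counts in P. revoluta plant 2, with highest values of 2364 and 1352 counts. They made up 0.194% of all counts in P. grandis plant 1 and 0.0414% in P. revoluta plant 2, and 308 of them were among the tested contigs. A shared source of these reads was not tested, and without gene names the contigs could not be assigned to an organism.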
